A study of Mus musculus with 8 samples.

Results

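Of 30175 Qki-5 peaks called in cultured mouse oligodendrocytes, 3709 (12.3%) lay away from gene ends and coincided with peaks of the other 3 antibodies used in those cells, whose targets were PPARb, the HA tag and RNA polymerase II (Pol II). These gene-distal 4-antibody sites were chosen by position and by the presence of the peaks. A Qki-5 peak on chromosomes 1 to 19, X or Y counted if the centres of a PPARb, an HA and a Pol II peak each lay under 200 bp from its centre, and if that centre was over 1000 bp from either end of every protein-coding gene in the RefSeq annotation of GRCm38. They made up 18.3% of the 20271 gene-distal Qki-5 peaks. The data came from chromatin immunoprecipitation with sequencing (ChIP-seq), which counts DNA fragments pulled down with an antibody. Differentiated oligodendrocytes were grown from neural stem cells of a hybrid FvB/C57BL6 background that ectopically expressed PPARb carrying an HA tag, at passage 7, in Neurobasal medium with B-27, GlutaMAX-I, IGF-1 and T3. All differentiated-cell libraries, input included, came from cells with the introduced receptor, and no source used here names the promoter that drives it. Isolated oligodendrocytes were taken from C57BL6 mouse brain with magnetic beads against O4, a surface antigen of the lineage, at passage 0, with no introduced receptor named, and gave a Qki-5 and a PPARb list. With 1 library per group, replicate error could not be measured, and peaks of a library are not replicates of the cells.

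Quaking is an RNA-binding protein that controls splicing and RNA stability during myelination, and Qki-5 is its nuclear isoform. PPARb, encoded by Ppard, is a lipid-sensing nuclear receptor that pairs with retinoid X receptors and binds DNA at repeats of the hexamer AGGTCA. The HA antibody is directed at the introduced receptor. The PPARb antibody can see the same tagged protein as well as the cell's own, so 4 antibodies do not stand for 4 different proteins. The samples hold no HA library from cells without the tag, so unspecific HA peaks could not be measured. Pol II is found at promoters and along genes, and also at enhancers, regulatory stretches of DNA that can lie far from the genes they act on. A Pol II peak far from gene ends can therefore mark an enhancer, an alternative start inside a gene, or a start that the annotation lacks. Inside a gene it can also be Pol II on its way along that gene.

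Pol II peaks gave a partial view of the state of the differentiated cells. Of 21887 protein-coding genes, 36.4% had a Pol II peak centre within 1000 bp of an end. The share was 4 of 30 for myelin genes (Cnp, Car2, Ndrg1 and Tmem88b), and Mbp, Mag and Mog, which encode defining myelin proteins, had none within that distance. Pol II peaks farther inside a gene are not counted in these shares. Mbp, Myrf and Plekhb1 each held a gene-distal 4-antibody site, with its Pol II peak, inside the gene. The share near gene ends was 15 of 20 for precursor and stem cell genes, among them Sox2, Nes and Vim. It was 6 of 13 for oligodendrocyte lineage factors, among them Olig1 and Tcf7l2. Astrocyte markers had such a peak in 6 of 13 cases and neuron markers in 4 of 15. Microglial markers had one in 1 of 15, and endothelial and mural markers in 0 of 13. Isolated cells had no Pol II list, so their label was not checked this way. What other cell types or immature cells contribute to the gene-distal sites was not tested.

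Shown first by sequence are 5 of these sites, because they lie over transcription starts that the gene-end rule does not see. They are the 5 with the highest lowest-of-4 height percentile among sites that carried both isolated-cell peaks and whose Qki-5 centre fell inside a RefSeq promoter window, which runs from 250 bases before a start to 50 after it. They were picked after the values were seen. The windows are 300 bases long, from GRCm38.p6, written 5′ to 3′ along the transcribed strand. Capitals mark GGGCGG, the GC box, and CCAAT on either strand, where GGGCGG on the other strand reads CCGCCC. Esyt2, which encodes a lipid-transfer protein of contacts between endoplasmic reticulum and plasma membrane, has the window chr12:116280972-116281271 on the plus strand. The noncoding gene Gm38882 has the window chr6:117879383-117879682 on the plus strand, and Srrm2, whose product is part of the splicing machinery, chr17:23802937-23803236 on the plus strand. Scaf4, whose product binds the Pol II tail, has chr16:90284437-90284736 on the minus strand, and Clk3, a kinase of splicing factors, chr9:57765065-57765364 on the minus strand.
Esyt2: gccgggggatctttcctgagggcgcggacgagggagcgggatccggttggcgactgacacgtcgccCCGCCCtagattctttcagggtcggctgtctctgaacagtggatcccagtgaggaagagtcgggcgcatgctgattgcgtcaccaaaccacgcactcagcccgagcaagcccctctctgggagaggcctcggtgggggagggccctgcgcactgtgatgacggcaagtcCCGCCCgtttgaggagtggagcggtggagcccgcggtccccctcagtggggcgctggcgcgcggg
Gm38882: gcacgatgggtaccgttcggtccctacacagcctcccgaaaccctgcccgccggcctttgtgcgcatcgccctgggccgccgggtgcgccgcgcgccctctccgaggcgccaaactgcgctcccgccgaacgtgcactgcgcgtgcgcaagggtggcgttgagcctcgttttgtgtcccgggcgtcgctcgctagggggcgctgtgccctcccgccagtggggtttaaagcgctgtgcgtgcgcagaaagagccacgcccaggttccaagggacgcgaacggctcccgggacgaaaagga
Srrm2: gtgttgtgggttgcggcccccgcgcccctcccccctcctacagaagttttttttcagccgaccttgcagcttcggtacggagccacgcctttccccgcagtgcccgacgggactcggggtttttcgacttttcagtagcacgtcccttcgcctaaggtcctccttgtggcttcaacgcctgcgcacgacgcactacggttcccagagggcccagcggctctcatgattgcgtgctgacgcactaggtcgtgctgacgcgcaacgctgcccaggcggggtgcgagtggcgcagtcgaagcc
Scaf4: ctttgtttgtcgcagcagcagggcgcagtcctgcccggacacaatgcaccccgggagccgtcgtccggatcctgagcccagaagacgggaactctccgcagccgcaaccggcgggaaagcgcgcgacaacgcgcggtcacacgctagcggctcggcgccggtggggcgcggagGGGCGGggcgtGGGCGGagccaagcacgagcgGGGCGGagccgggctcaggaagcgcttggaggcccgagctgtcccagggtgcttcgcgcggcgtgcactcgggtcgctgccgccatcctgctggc
Clk3: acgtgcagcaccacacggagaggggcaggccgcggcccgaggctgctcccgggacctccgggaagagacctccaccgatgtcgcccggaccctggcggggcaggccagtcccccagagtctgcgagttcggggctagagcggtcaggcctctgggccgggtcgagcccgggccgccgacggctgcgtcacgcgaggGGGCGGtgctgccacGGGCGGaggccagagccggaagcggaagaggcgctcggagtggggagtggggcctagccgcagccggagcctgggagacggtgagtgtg

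All 5 windows were rich in CpG, with 28 in Esyt2, 40 in Gm38882, 30 in Srrm2, 41 in Scaf4 and 33 in Clk3, beside a median of 7 (quartiles 3 and 20) over all 32851 windows of the table. The GC box was found 2 times in Esyt2, 3 times in Scaf4 and 2 times in Clk3, and not in the other two. No window held AGGTCA or CCAAT. The Qki-5 centres stood close to the starts, 62 bp upstream in Esyt2, 40 bp upstream in Gm38882, 92 bp upstream in Srrm2, 3 bp downstream in Scaf4 and 33 bp upstream in Clk3. From the nearest protein-coding gene end they lay 1088 bp (Clk3), 1657 bp (Scaf4), 1877 bp (Esyt2), 6827 bp (Gm38882) and 12568 bp (Srrm2). These examples do not stand for the whole set, of which 83.4% had no start within 1000 bp, chromosome 18 left out. At Esyt2 the heights, in tags per 10000000, in differentiated cells were 26 with Qki-5, 25.4 with PPARb, 38.8 with HA and 33 with Pol II, and those in isolated cells were 15.1 with Qki-5 and 13.1 with PPARb. At Scaf4 they were 23.2, 15.6, 36.4, 12.9, 8.24 and 9.24 in the same order. Both sites were marked in all 6 peak lists.

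The gene-distal 4-antibody sites were tall for Qki-5, PPARb and HA and low for Pol II. A height is the authors' normalized tag count, in tags per 10000000. Since a peak had to be called in all 4 lists, these heights helped to choose the sites and are given with no test. The median Qki-5 height was 14.9 (quartiles 11.6 and 18.3), which stood at percentile 74.5 of the Qki-5 list. The PPARb median was 12.9 (10.2 and 16.0; percentile 75.4), and the HA median was 19 (14.3 and 24.6; percentile 75.2). The Pol II median was 7.64 (6.43 and 9.24), percentile 35.5 of its list, and 28.6% of the sites exceeded the Pol II list's median of 8.84. Median folds over input were 15.2, 13.2, 19.5 and 8.65 in the same order. Pol II was also the lowest of the 4 on that scale, at 10.7, at sites with all 4 antibodies within 1000 bp of a gene end. Its rank by fold therefore does not set the distal sites apart. All 4 lists were called against 1 shared input library.

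Distal Qki-5 peaks with PPARb and HA but no Pol II peak, 6194 in number, were lower in the 3 lists they share, with medians of 11.1 (Qki-5), 9.79 (PPARb) and 13.5 (HA). Sites with all 4 antibodies within 1000 bp of a gene end, 4017 in number, had medians of 15.5, 12 and 19 in those lists and 10.4 for Pol II, percentile 64.7. Distal and gene-end sites thus had like medians with the first 3 antibodies, and the Pol II median was lower at the distal ones.

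**Figure D1:**
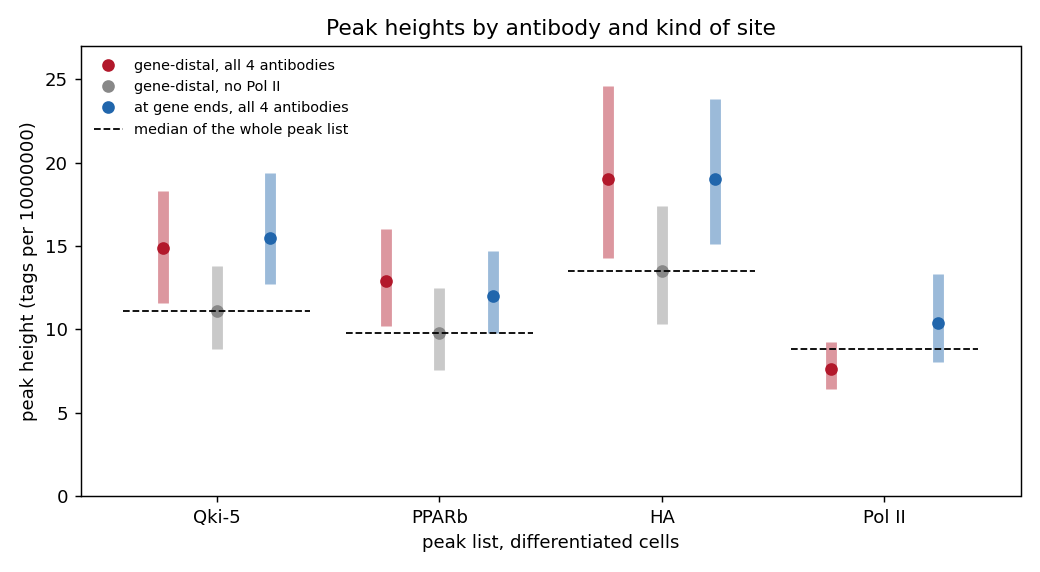
Peak heights in the 4 differentiated-cell lists, in tags per 10000000 on the vertical axis, for gene-distal sites with all 4 antibodies (red, n = 3709), gene-distal sites without Pol II (grey, n = 6194) and sites at gene ends with all 4 (blue, n = 4017). Points are medians, bars run between quartiles and dashed lines are whole-list medians. The red Pol II median of 7.64 lies under its list's median of 8.84, while the other red medians lie above theirs.

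Heights at the sites rose and fell together to a moderate degree. Across the 3709 sites the Spearman rho was 0.66 between Qki-5 and PPARb, 0.64 between PPARb and HA, 0.55 between Qki-5 and HA, and 0.48, 0.43 and 0.4 between Pol II and Qki-5, HA and PPARb. The sites share 4 libraries and 1 input, so these values describe the libraries. The centres lay close to the Qki-5 centre, at a median distance of 45 bp for PPARb, 47 bp for HA and 53 bp for Pol II. Within 50 bp stood 54.5%, 52.5% and 47.5% of them.

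Some sites stood out with 1 antibody more than with the rest. The tallest HA peak, at 122.8 (95% exact Poisson interval 104.0 to 144.0), was at chr19:3325356-3325556, inside Cpt1a, 3130 bp from its nearer end. Cpt1a encodes the enzyme that brings long-chain fatty acids to the mitochondrial carnitine shuttle and is a textbook PPAR target. The PPARb height there was 22.7 (16.9 to 29.8), while Qki-5 at 10.5 (6.33 to 16.4) lay below that list's median of 11.1 and Pol II at 7.64 (4.6 to 11.9) below its own, and no isolated-cell peak was called. HA was also tall at Eci2, a fatty acid oxidation isomerase, where it reached 68.1, with PPARb 18.2, Qki-5 14.4 and Pol II 8.84 at chr13:34994129-34994329. The tallest Pol II peak, at 78.8 (68.1 to 90.6), was inside Tob1, an antiproliferative gene, at chr11:94211241-94211441 and 113 bp from an annotated start. There Qki-5 was 17.7, PPARb 9.35 and HA 20.6, and isolated-cell Qki-5 was 11.9. All these intervals cover counting error only.

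Other sites were tall throughout. The 10 sites whose lowest height percentile among the 4 lists was highest included those assigned to 4930467E23Rik, Esyt2, Tsc22d4, Nfia, Fut8, Zfp397 with Zscan30, Plekhb1, Angptl6 and Rab2a. All 10 had an isolated-cell Qki-5 peak and 7 an isolated-cell PPARb peak, beside 16.7% and 3.59% of all the sites. They were picked by height, and both shares were higher at taller sites. Plekhb1, a gene of mature oligodendrocytes, had heights of 27.7, 25.8, 45.9 and 16.1 for Qki-5, PPARb, HA and Pol II at chr7:100653920-100654120, 2945 bp from the nearest annotated start, and an isolated-cell Qki-5 height of 7.33. Tsc22d4, which encodes a leucine zipper regulator, had 23.2, 23.6, 42 and 22.1 at chr5:137760045-137760245, and isolated-cell heights of 7.33 and 8.16. The tallest site of all for Qki-5 (66.4) and PPARb (50.7) was at chr8:19784551-19784751, 95 bp from the pseudogene Gm10060, with 81.6 for HA and 36.6 for Pol II. Its input values were also the highest of all the sites, at 14.3, 15, 10 and 12 tags beside site medians of 1.9, 2.0, 1.3 and 2.0 in the 4 lists, and its folds over input were 8.4, 6.42, 10.32 and 5.78. That site therefore ranked below the median of the sites in fold over input in each list. The part of the input reads in these heights was not tested.

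More of the sites lay inside genes than between them. Of the 3709 sites, 2243 had their centre inside a protein-coding gene, a share of 60.5% (95% exact Clopper-Pearson interval 58.9 to 62.1), and 1466 lay between genes. At distal sites without Pol II the share was 57.1% (55.8 to 58.3), 3.4 points lower (two-sided Fisher's exact test, adjusted p = 0.00105 by the Benjamini-Hochberg method over 6 tests). This small difference was nearly absent away from annotated starts, whose part in it was not tested. Among sites with no start within 1000 bp, a setting chosen after the data were seen, the shares were 56.1% and 56.0% (Fisher's exact, adjusted p = 1.0). It also missed the threshold at gene-end distances of 2000 bp (2.17 points, adjusted p = 0.0519 by Fisher's exact test) and 5000 bp (2.2 points, 0.0645) and with centres at most 100 bp apart (2.27 points, 0.0894). It was 3.52 points with the ends of all genes (Fisher's exact, adjusted p = 0.00109) and larger, at 6.12 points, with every list held to 8-fold over input (63.4% against 57.2%, Fisher's exact, adjusted p = 4.33e-05).

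The median distance to the nearest protein-coding gene end was 22211 bp (quartiles 7328 and 61594), beside 27226 bp at distal sites without Pol II. Over 100 kb away lay 580 sites, or 15.6%. The farthest, at chr1:113358336-113358536, was 1493384 bp from Dsel and still had heights of 21.6, 17.4, 19 and 8.84 for Qki-5, PPARb, HA and Pol II. The next 2 were 1297379 bp from Mrpl39 and 1278910 bp from Ctnna2. None of these 3 had an isolated-cell peak.

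An end of a noncoding gene lay within 1000 bp of 316 sites, 8.52% (7.64 to 9.46), beside 7.39% without Pol II, a difference of 1.13 points (Fisher's exact, adjusted p = 0.0444). The nearest was a long noncoding RNA at 263 of these sites, a pseudogene at 19, a transcribed pseudogene at 9, a microRNA at 10 and a transfer RNA at 8. The difference turned to -0.0735 points with centres at most 100 bp apart (adjusted p = 0.962 by Fisher's exact test), so its direction depends on that distance, and it missed the threshold at gene-end distances of 2000 bp (0.85 points) and 5000 bp (0.984) and at 8-fold over input (1.61 points, larger than the reported difference).

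Part of the set lay at annotated starts inside or between genes. A RefSeq table with alternative starts was compared with the 3569 sites outside chromosome 18, for which that table holds no start. A start lay within 250 bp of 470 sites, 13.2% (12.1 to 14.3), beside 5.6% (5.03 to 6.22) at distal sites without Pol II and 6.61% of all gene-distal Qki-5 peaks. Of these starts, 373 belonged to protein-coding genes and 97 to long noncoding RNAs. Another 121 sites had a start between 250 and 1000 bp away, and 2978 (83.4%) had none within 1000 bp. The first class was concentrated near gene ends: at 1 to 2 kb from a gene end 133 of 270 sites (49.3%) had a start within 250 bp, and at over 100 kb 21 of 556 (3.78%), chromosome 18 left out. Examples were Srsf1, which encodes a splicing factor of the SR family, with a start 163 bp away, Mbnl1, another splicing regulator, at 91 bp, and Srebf1, the regulator of lipid synthesis genes, at 157 bp. Their Pol II heights were 15.7, 11.7 and 9.24.

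The 470 start sites differed from the others mainly in Pol II height, which is given here with no test. The median Pol II height was 9.82 (quartiles 7.64 and 12.9) there and 7.23 (6.43 and 8.84) at the 2978 sites without a start. The Qki-5 median was 14.9 in both classes, PPARb was 11.6 and 12.9, and HA 19.8 and 19. Gene-end sites with a start had a Pol II median of 10.4.

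The median centres of the 4 antibodies around these starts differed by little beside their spread. With downstream positions positive, the median centre was at -6 bp for Qki-5 (quartiles -62 and 55), -8 bp for PPARb (-60 and 62), 16 bp for HA (-72 and 77) and 45 bp for Pol II (-60 and 95). Pol II centres lay downstream of the start at 301 of 470 sites (64.0%), and Qki-5 centres at 218 (46.4%). At 2971 gene-end sites the medians were -13, -13, 10 and 58 bp, with Pol II downstream at 70.1%. In both sets the Qki-5 and PPARb medians lay upstream, with HA and then Pol II downstream. The quartiles of all 4 lay on both sides of the start in both sets. Whether PPARb and HA centres differ in order at single sites was not tested.

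**Figure D2:**
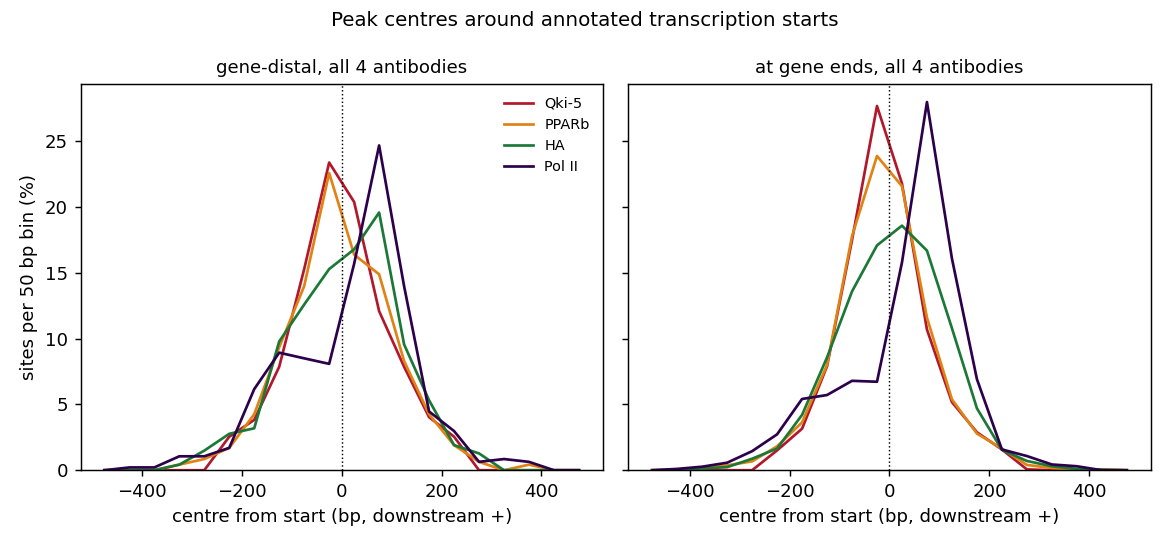
Share of sites with a peak centre in each 50 bp bin (vertical axis, %) by distance from the nearest annotated start (horizontal axis, bp, downstream positive), for gene-distal sites (left, n = 470) and gene-end sites (right, n = 2971) with a start within 250 bp of the Qki-5 centre, which bounds the Qki-5 curve. Pol II peaks downstream of the start in both panels, with medians of 45 and 58 bp, and Qki-5 and PPARb lie about the start.

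The letters of the start regions were those of CpG-rich promoters. Of 404 promoter windows that held the centre of a gene-distal 4-antibody site, 67.3% (62.5 to 71.9) contained GGGCGG on either strand, against 35.7% of all windows, 74.1% of 2945 windows with a gene-end 4-antibody site and 54.2% of 297 windows with a distal site lacking Pol II. The median GC content was 63.0% beside 52.7% in all windows, and the median CpG number 23 beside 7. TATAAA was present in 5.2% beside 13.6%. The PPAR half-site AGGTCA was present in 11.9% (8.89 to 15.4) beside 16.3% of all windows, and a direct repeat of it with a single base between was in 0 of 404, beside 0.0396% of all windows. ACTAAC and ACTAAT, letters of the Quaking response element in RNA, were present in 6.44% and 2.72% beside 6.09% and 6.0%. CCAAT was in 32.9% beside 37.4%. All motifs were sought on both strands, AGGTCA counts include those in a repeat, and a window without a match says only that these letters are not in it. The DNA of the 2978 sites without a start was not analysed here.

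In isolated oligodendrocytes, whose libraries had no part in choosing the sites, most of the sites had no peak. An isolated-cell Qki-5 peak centre lay under 200 bp from 620 sites, 16.7% (15.5 to 18), and a PPARb centre as near to 133, 3.59% (3.01 to 4.24). Of all gene-distal Qki-5 peaks, 7.67% had an isolated-cell Qki-5 peak and 1.32% an isolated-cell PPARb peak. Both were present at 105 sites (2.83%), Qki-5 alone at 515 (13.9%), PPARb alone at 28 (0.755%) and neither at 3061 (82.5%). Where PPARb was called, Qki-5 was also called at 78.9% (71.0 to 85.5). That share is not given here for isolated-cell PPARb peaks elsewhere, so it does not set these sites apart. The isolated-cell lists are short, at 8375 and 1391 peaks, and only 0.849% and 0.116% of the tags in those libraries lay in peaks, so where a peak is missing, none could be detected with these reads.

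Both shares were higher than at distal sites without Pol II and far lower than at gene ends. Without Pol II the Qki-5 share was 7.88% (7.22 to 8.58; difference 8.84 points, odds ratio 2.35, Fisher's exact, adjusted p = 1.23e-39) and the PPARb share 1.37% (1.1 to 1.69; 2.21 points, odds ratio 2.67, adjusted p = 2.3e-12). At gene ends the Qki-5 share was 56.1% (54.5 to 57.6; difference -39.4 points, odds ratio 0.157, Fisher's exact, adjusted p = 2.59e-292) and the PPARb share 10.5% (9.57 to 11.5; -6.92 points, odds ratio 0.317, adjusted p = 3.99e-33). Peaks are the units of these tests, so each p describes these libraries.

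The difference from sites without Pol II was smaller among tall peaks. With Qki-5 heights at or above the median of the 4-antibody sites, the Qki-5 shares were 22.0% and 19.5% (2.56 points, Fisher's exact, adjusted p = 0.177) and the PPARb shares 5.51% and 4.83% (0.681 points, adjusted p = 0.496). By height quartile of the Qki-5 list from low to high, the Qki-5 shares were 3.32%, 10.8%, 13.4% and 22.7% with Pol II and 2.7%, 4.18%, 8.09% and 21.3% without. The surplus was thus found in the middle quartiles, and in the top quartile the intervals overlapped (20.7 to 24.7 and 18.9 to 23.9). The difference from gene-end sites held among tall peaks, at 22.0% against 67.6% for Qki-5. With every list held to 8-fold over input, which shortens the isolated-cell lists also, the Qki-5 shares were 7.01% and 4.2% with and without Pol II (2.8 points, Fisher's exact, adjusted p = 4.33e-05) and the PPARb shares 1.08% and 0.562% (0.515 points, adjusted p = 0.0539). In the same lists gene-end sites had 21.4% for Qki-5 and 3.17% for PPARb, so those differences shrank to -14.4 and -2.09 points (Fisher's exact, adjusted p = 4.71e-35 and 4.33e-05).

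The isolated-cell share fell with distance from gene ends. It was 44.4% (38.5 to 50.5) for Qki-5 at 1 to 2 kb, 30.4% at 2 to 5 kb, 22.5% at 5 to 10 kb, 14.6% at 10 to 20 kb, 11.5% at 20 to 50 kb, 9.89% at 50 to 100 kb and 5.17% (3.52 to 7.3) beyond. Distal sites without Pol II also fell, from 18.6% to 2.57%, and lay lower in each of the 7 distance classes. PPARb fell from 8.66% (5.63 to 12.6) to 0.69% (0.188 to 1.76).

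**Figure D3:**
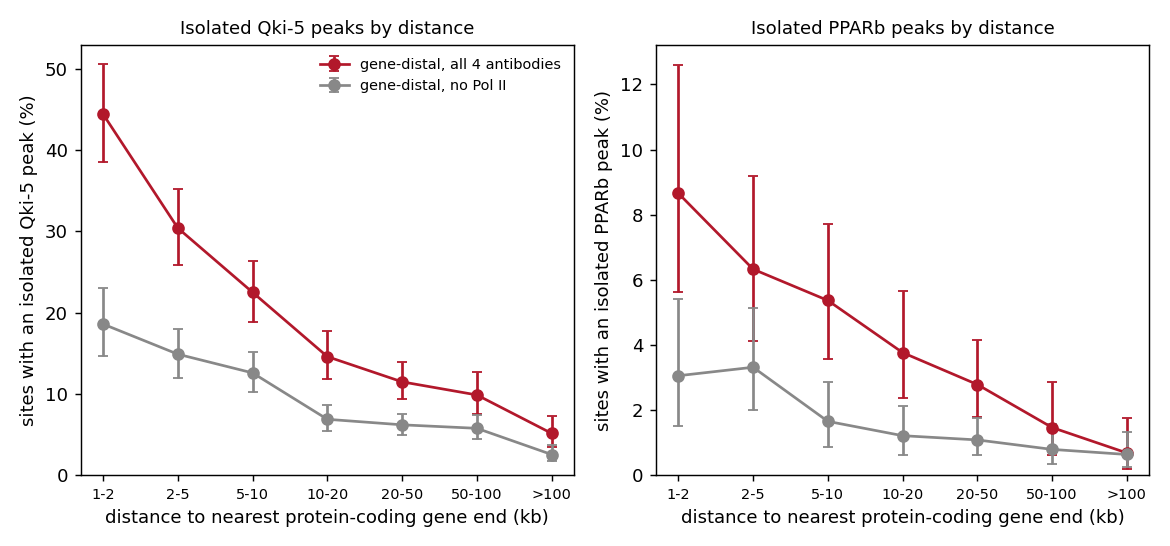
Share of sites with an isolated-cell Qki-5 (left) or PPARb (right) peak (vertical axes, %) by distance to the nearest protein-coding gene end (horizontal axis, kb), for gene-distal sites with all 4 antibodies (red) and without Pol II (grey). Bars are 95% exact intervals, which cover counting error only. Qki-5 falls from 44.4% to 5.17% in red and from 18.6% to 2.57% in grey.

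Isolated-cell peaks were more frequent at annotated starts. Sites with a start within 250 bp had an isolated-cell Qki-5 peak in 235 of 470 cases, 50.0% (45.4 to 54.6), and those with none within 1000 bp in 331 of 2978, 11.1% (10 to 12.3), a difference of 38.9 points (Fisher's exact, adjusted p = 1.47e-77 over 2 tests, a comparison chosen after the data were seen). For PPARb the shares were 9.15% (6.7 to 12.1) and 2.59% (2.05 to 3.22; 6.56 points, Fisher's exact, adjusted p = 3.26e-10). Gene-end sites with a start had 59.4% for Qki-5. Without any start within 1000 bp, the surplus over distal sites lacking Pol II was 4.9 points for Qki-5 (11.1% against 6.21%, Fisher's exact, adjusted p = 1.83e-14) and 1.49 points for PPARb (2.59% against 1.1%, adjusted p = 7.72e-07).

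**Figure D4:**
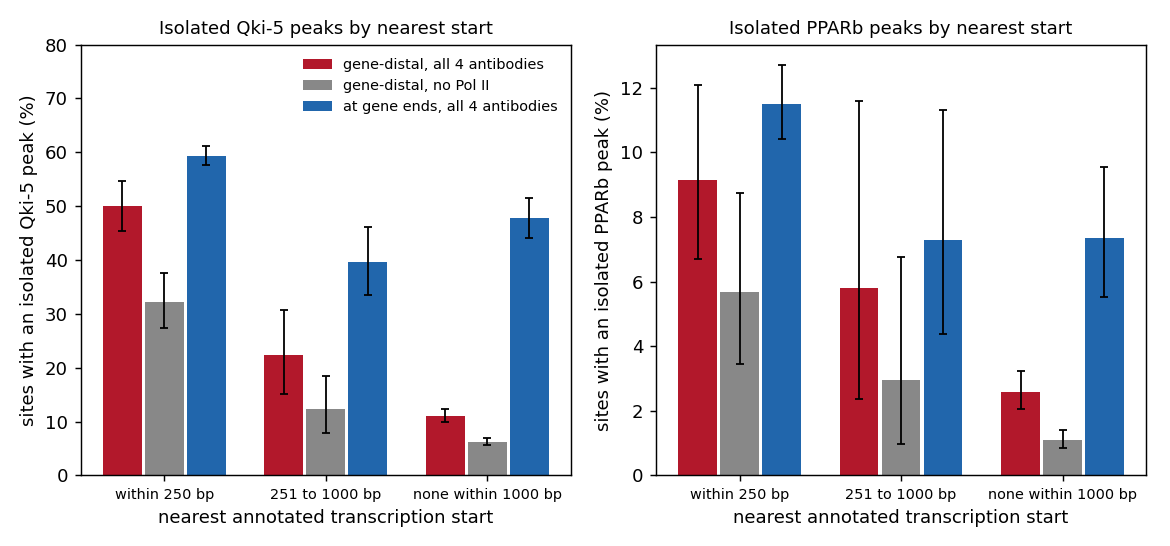
Share of sites with an isolated-cell Qki-5 (left) or PPARb (right) peak (vertical axes, %, from 0) by distance to the nearest annotated start, for gene-distal sites with all 4 antibodies (red), without Pol II (grey) and gene-end sites with all 4 (blue). Error bars are 95% exact intervals for counting error. The red Qki-5 bars go from 50.0% at starts to 11.1% with none within 1000 bp.

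Among the 4-antibody sites the share also climbed with Pol II height. From the lowest to the highest quintile by Pol II it was 8.1%, 7.84%, 11.5%, 19.5% and 38.8% for Qki-5, and for PPARb it went from 0.514% to 10.3%. Outside chromosome 18, the share with a start within 250 bp went from 5.1% to 32.5% over the same quintiles. The climb in Qki-5 was present on both sides of that split: from 34.2% (19.6 to 51.4) to 61.5% (54.6 to 68.1) at start sites, and from 6.77% (5.02 to 8.9) to 26.3% (22.1 to 30.9) at sites with no start within 1000 bp. The isolated-cell Qki-5 share also rose with Qki-5 height, from 8.83% to 27.6%, and with HA height, from 9.22% to 25.3%. By PPARb height it was flatter, at 11.9%, 16.8%, 17.8%, 19.5% and 17.9%, while the isolated-cell PPARb share went from 1.02% to 6.88% over those quintiles. Sites with a start within 250 bp, chromosome 18 left out, went from 16.3% to 7.11% over the PPARb quintiles. They went from 10.2% to 14.7% by Qki-5 height and from 11.5% to 12.8% by HA height. The part of start sites in these differences was not tested.

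**Figure D5:**
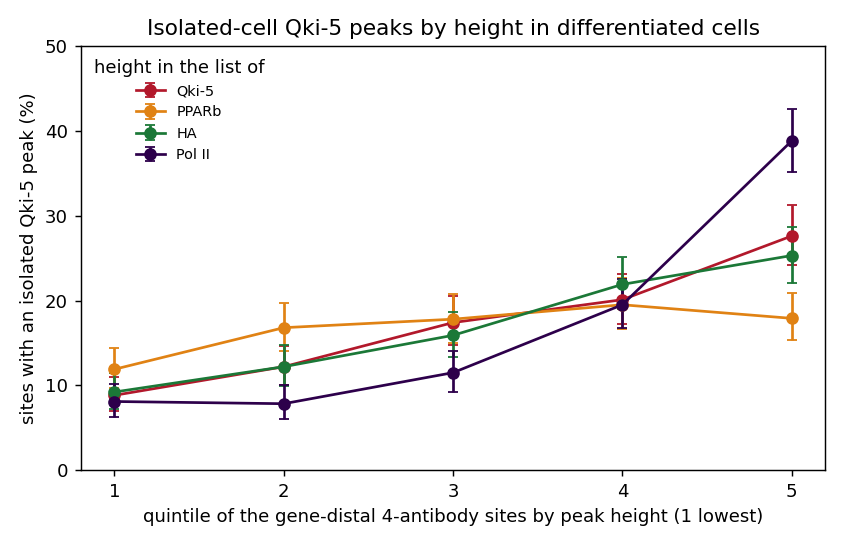
Share of the 3709 sites with an isolated-cell Qki-5 peak (vertical axis, %) by quintile of peak height in each of the 4 differentiated-cell lists (horizontal axis, 1 lowest). Bars are 95% exact intervals for counting error. The Pol II line climbs from 8.1% to 38.8%, the Qki-5 and HA lines reach 27.6% and 25.3%, and the PPARb line stays between 11.9% and 19.5%.

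Where present, the isolated-cell Qki-5 peaks were tall for distal ones. Their median height was 9.62 (quartiles 7.79 and 12.4), beside 7.79 over the 3309 gene-distal peaks of that list and 11 at gene-end 4-antibody sites. PPARb peaks had a median of 7.61, the same as the distal PPARb list, and 8.16 at gene-end sites. The sites took in 18.6% of the distal isolated-cell Qki-5 peaks and 27.8% of the 475 distal PPARb peaks. Sites with both isolated-cell peaks, ordered by their lowest height percentile, included, among the leading ones, Esyt2, Tsc22d4, Fut8, Zfp397 with Zscan30, Angptl6, Rab2a, Cops7a, Rab31 and Tbpl1. Cops7a, a subunit of the COP9 signalosome, had isolated-cell heights of 20.2 for Qki-5 and 7.07 for PPARb at chr6:124965346-124965546, 66 bp from a start. Rab31, a small GTPase of vesicle traffic, had 10.1 and 8.16 at chr17:65702243-65702443, 50617 bp inside its gene and 60023 bp from any start of the table. The list thus held both start sites and sites deep in introns or exons, which the annotation used here does not separate.

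Each site was assigned to the protein-coding genes that hold it, or else to the gene with the nearest end, by position alone. This gave 2723 genes, 12.4% of 21887, of which 1737 held a site inside (7.94% of all). A single site fell to 2044 genes and 3 or more to 212. Long genes were more often hit: 5.71% of genes up to 20 kb, 15.4% of those from 20 to 100 kb and 35.9% of those over 100 kb. The median length of genes with a site inside was 74917 bp, beside 17169 bp for all. Nfia, which encodes a transcription factor of glial development, led with 10 sites, 8 of them inside its 541 kb, followed by Syn3 with 9 in 450 kb, and Gse1, Hivep3 and Klhl29 with 7 each. Sites inside the gene per 100 kb of its length were 1.48 for Nfia, 2.0 for Syn3, 1.98 for Gse1, 1.48 for Hivep3 and 1.68 for Klhl29. At Nfia the tallest site by lowest percentile, at chr4:97772193-97772393, had 21.6, 17.8, 33.3 and 18.9 for Qki-5, PPARb, HA and Pol II and an isolated-cell Qki-5 height of 15.6, and it was the only 1 of the 10 with an isolated-cell Qki-5 peak. None of the 9 sites at Syn3 and none of the 7 at Klhl29 had one, and Gse1 and Hivep3 had 2 each. Over all the sites the share was 16.7%, and at 20 to 50 kb from gene ends 11.5%, so these small counts set no gene apart.

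Regulators of the lineage often had a gene-distal site, to be read against the 12.4% of all genes. Oligodendrocyte lineage factors had one at 7 of 13 genes: Olig1, Olig2, Sox5, Sox6, Sox8, Sox10 and Tcf7l2, 2 of them with a site inside. Distal sites without Pol II were assigned to 6 of the 13, beside 17.3% of all genes. Sox5, which holds oligodendrocytes back from early differentiation, had heights of 24.9, 20, 26.1 and 12.9 for Qki-5, PPARb, HA and Pol II at chr6:144056815-144057015, 228490 bp inside from the gene's nearer end. Olig1 had 18.3, 15.6, 30.9 and 12.5 at chr16:91304205-91304405, 32366 bp away, and Sox8 had 19.9, 17.4, 24.6 and 12.9 at chr17:25561797-25561997, 3996 bp away. None of these 3, nor the Sox6 site named by the same rule, had an isolated-cell peak.

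Precursor and stem cell genes had a site at 8 of 20, all between genes, among them Sox2, Sox9, Sox11, Hes1, Hes5, Id4 and Ptprz1. At Sox2, the stem cell factor, the site chr3:34443876-34444076 lay 206019 bp away with heights of 17.7, 12, 22.2 and 11.7 and an isolated-cell Qki-5 height of 9.16. Hes1, a Notch target, had 23.8, 14.2, 41.2 and 9.65 at chr16:30008925-30009125, 56332 bp away and 358 bp from a start of a long noncoding RNA, with no isolated-cell peak. Distal sites without Pol II were assigned to 13 of these 20 genes.

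Myelin genes had a site at 7 of 30, Mbp, Cldn11, Myrf, Plekhb1, Pllp, Car2 and Qdpr, and 14 of 30 had a site without Pol II. The other myelin sites named by the rule were lower than Plekhb1 in all 4 lists, taken as Qki-5, PPARb, HA and Pol II: Pllp, a myelin membrane protein, had 10.5, 9.79, 16.6 and 7.23, Car2 14.9, 12.9, 10.3 and 8.84, and Qdpr 17.7, 11.1, 18.2 and 7.64, none with an isolated-cell peak. Astrocyte markers had a site at 7 of 13, and 10 of 13 had a distal site without Pol II. Gfap, the astrocyte filament gene, had 24.9, 29.8, 42 and 12.5 at chr11:102898453-102898653, 1353 bp from the gene, and no isolated-cell peak. At Aldh1l1, an astrocyte folate enzyme, the heights were 25.4, 28.0, 42 and 10 at chr6:90535158-90535358, and isolated cells had a PPARb peak of 15.2 (10.1 to 22.0), the tallest isolated-cell PPARb peak at any of the sites, with no Qki-5 peak. Neuron markers had a site at 3 of 15, microglial at 1 of 15, endothelial and mural at 1 of 13 and genes of other tissues at 2 of 30.

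Fatty acid oxidation genes stood close to the background in gene-distal 4-antibody sites. These genes had a 4-antibody site at 4 of 27 (14.8%: Cpt1a, Eci2, Acox3 and Ehhadh) and known PPAR targets at 4 of 25 (16.0%), beside 12.4% of all genes. Of the same 27 oxidation genes, 21 had a Pol II peak within 1000 bp of an end. Cholesterol and fatty acid synthesis genes had a site at 8 of 36 (22.2%), with 6 inside genes. Heights are again in the order Qki-5, PPARb, HA and Pol II. Srebf1 had 13.3, 16.9, 29.3 and 9.24 at chr11:60220370-60220570 and an isolated-cell Qki-5 height of 14.7, and Elovl5, a fatty acid elongase, 21.6, 17.4, 22.2 and 12.1 at chr9:77910631-77910831 and an isolated-cell Qki-5 height of 13.3. Splicing genes had a site at 4 of 29 (13.8%), with isolated-cell Qki-5 heights of 19.2 at Srsf1, 13.7 at Hnrnpu and 11 at Mbnl1 and no isolated-cell peak at Srsf3.

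Nuclear receptors and their cofactors had a site at 15 of 33 genes (45.5%), 9 of them inside, including Ppard, which encodes PPARb itself, Pparg, and the retinoid receptors Rxra, Rxrg, Rara and Rarg. These genes were long, with a list median of 53.9 kb, and 20 of 33 had a distal site without Pol II. Rara, the retinoic acid receptor alpha, had 22.1, 20.5, 42.8 and 13.3 for Qki-5, PPARb, HA and Pol II at chr11:98951467-98951667. The clock repressor Nr1d1 had 22.1, 15.6, 37.2 and 11.3 at chr11:98783374-98783574, 254 bp from a long noncoding RNA, and isolated-cell peaks of both Qki-5 (13.7) and PPARb (8.16). Signalling and cytoskeleton genes had a site at 13 of 26 (50.0%) and immediate-early and stress genes at 11 of 33 (33.3%), beside 16 and 18 with a distal site lacking Pol II. In this last list Per1, a clock gene, had an isolated-cell Qki-5 height of 18.8 at a site 1968 bp inside the gene. Lists were chosen with earlier results in view, so no list is set apart here. The share of genes with a site rises with gene length, and the signalling and cytoskeleton genes were also long, with a median of 65.4 kb. Other lists with high shares were short beside the median of 17169 bp for all genes. Median lengths were 5.23 kb for precursor and stem cell genes, 4.29 kb for immediate-early and stress genes and 10.3 kb for astrocyte markers. Lineage factors also had a median length below that of all genes. In these lists few genes with a site had one inside. They were 0 of 8 precursor and stem cell genes and 2 of 11 immediate-early and stress genes. Among astrocyte markers and among lineage factors they were 2 of 7. Sites between genes were assigned by the nearest end, so the distance between genes also bears on these shares. That distance was not measured, and the part of gene length in the list shares was not tested.

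Heights were close on both sides of each threshold. The 200 distal sites whose farthest partner centre was from 180 to under 200 bp away had median heights of 14.9, 12.9, 19.4 and 8.04 for Qki-5, PPARb, HA and Pol II, and the 180 just outside, within the next 20 bp, had 14.4, 12.2, 19 and 8.04. The 66 sites that were over 1000 and up to 1200 bp from a gene end had 15.5, 13.2, 19.4 and 9.45, and the 98 in the last 200 bp before that limit, which were not counted, 14.4, 11.6, 19 and 9.24. An isolated-cell Qki-5 peak was present at 53.0% of these 66 sites and at 37.8% of the 98 nearer ones, so the lower share of the distal sites as a whole does not begin at that limit. Across the centre-distance limit the shares were 22.5% inside and 21.1% outside. Just inside stood Eif4a1, a translation initiation factor, at just over 1000 bp with 14.9, 13.8, 28.5 and 14.5, and just outside Wdcp at 993 bp with 12.2, 13.4, 16.6 and 5.63.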

How the data were processed

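Differentiated-cell (Qki-5, PPARb, HA, Pol II) and isolated-cell (Qki-5, PPARb) peak lists were analysed, 1 library each. Per the file headers, the authors called peaks with HOMER findPeaks at a false discovery rate of 0.001, requiring 4-fold over input and over the surrounding 10000 bp and a Poisson p of 0.0001, with 200 bp peaks whose centres are at least 400 bp apart. The submitters' processing notes name HOMER 4.10.1, SAMtools 1.8, Bowtie 1.2.2, Trim Galore 0.4.4, bcl2fastq 2.19.1.403 and mm10, in no stated order. Per the file headers, the word merge stands in the tag directory names of 2 libraries, the isolated-cell input and Qki-5 in differentiated cells, and no source used here says what was merged. All tag directory names contain rmdup, a usual label for removed duplicate reads. All differentiated-cell lists share 1 input and both isolated-cell lists another.

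The deposited normalized tag count is a signal in tags per 10000000. The deposited total tags per peak are unscaled counts in 4 of the lists and a scaled signal in the other two (differentiated-cell PPARb and Pol II). The folds over input and local background are ratios by the authors' peak caller. Depth ranged from 12624236 to 24880851 tags, and a median peak held 14 to 22 tags.

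Gene positions came from RefSeq GRCm38.p6 (mm10 is that build), which lists 21887 protein-coding genes here, and starts from a table of 32851 promoter windows. That gene table gives no exons, so parts of a gene could not be distinguished. Python 3.11.15, pandas 2.3.3, numpy 2.4.6 and scipy 1.17.1 were used. Shares have 95% Clopper-Pearson intervals and heights 95% Poisson intervals, for counting error only. The 6 two-sided Fisher's exact tests were adjusted together, with a threshold of 0.05. The site rule and tests were tested on simulated data. The sites, gene lists and tests were chosen with earlier results of these data known. Named sites were the tallest in each list, the 10 with the highest lowest-of-4 height percentile, up to 10 with both isolated-cell peaks in that order, the 6 genes with most sites, up to 4 genes per list, the 3 farthest from genes and those beside each threshold. The printed promoters and the microRNA sites were added after the values were seen. Letter motifs in the peaks were not analysed here because no genome sequence was used. Some genes and sites that these rules select are not reported here.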

Additional observations from a re-analysis of the deposited data

How the results depend on the processing

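Each alternative changed 1 choice. Of 65 alternative values, 38 kept their direction and call or moved within their interval. Of the 42 tested differences, 31 kept both. The differences from gene-end sites did so under every alternative run. No paired analysis was possible because each group has 1 library, and there was no replicate to leave out. The planned search for letter motifs in the peaks was not run.

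The number of sites was 2188 with centres at most 100 bp apart, 1670 with all 6 lists held to 8-fold over input, 3432 and 3037 at gene-end distances of 2000 and 5000 bp, 3393 with the ends of all genes and 2978 with no annotated start within 1000 bp. The share inside genes was 58.5% and 57.5% at gene-end distances of 2000 and 5000 bp, 62.4% with the ends of all genes, 63.4% at 8-fold and 56.1% with no annotated start within 1000 bp, a setting added after the data were seen. The isolated-cell Qki-5 share was 14.7% at 100 bp, 14.5% and 12.4% at 2000 and 5000 bp, 7.01% at 8-fold and 11.1% with no start. The PPARb share was 2.93% at 100 bp, 2.77% at 5000 bp, 1.08% at 8-fold and 2.59% with no start.

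Against sites without Pol II, the intragenic difference missed the threshold at 2.27 points (100 bp), 2.17 (2000 bp), 2.2 (5000 bp) and 0.0939 (no start). The noncoding-gene difference turned to -0.0735 at 100 bp and missed at 0.85 (2000 bp), 0.984 (5000 bp) and 1.61 (8-fold). The isolated-cell Qki-5 difference missed at 2.56 points among tall peaks. The PPARb difference missed at 0.681 among tall peaks and 0.515 at 8-fold. The cause of these changes was not tested. With 14 to 22 tags in a median peak, single heights are imprecise.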

Other observations

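The X chromosome held few of the sites. Of 273 gene-distal Qki-5 peaks there, 19 were 4-antibody sites, 6.96% (95% exact interval 4.24 to 10.7), beside 3689 of 19988 on the autosomes, 18.5% (17.9 to 19). Sites with PPARb and HA but no Pol II took 25.6% on X and 30.6% on the autosomes. The median height of distal Qki-5 peaks was 7.74 on X and 9.96 on the autosomes, and its part in the lower share was not tested. Among autosomes the share ran from 12.9% on chromosome 13 to 22.2% on chromosome 5.

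At 10 of the 3709 sites the nearest noncoding gene was a microRNA gene within 1000 bp. They include Mir9-3, a microRNA of neural progenitors, 398 bp from chr7:79504766-79504966 with heights of 13.8, 8.46, 18.2 and 25.7 for Qki-5, PPARb, HA and Pol II. Mir212 lay 28 bp from a site with 11.1, 8.46, 18.2 and 5.63, and Mir125b-1 995 bp from one with 15.5, 14.2, 15.8 and 6.83. None of these 3 had an isolated-cell peak. Inside Nfic, 784 bp from Mir1191b, a site at chr10:81416981-81417181 had 28.8, 16.5, 32.5 and 6.83, and isolated-cell heights of 6.87 for Qki-5 and 7.61 for PPARb. How often other distal Qki-5 peaks lie as near to a microRNA gene was not counted, so these sites are examples only.

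The sites were spread out. Only 170 of 3709 (4.58%) had another within 5 kb, and the median distance to the next was 101.0 kb, beside 8.33% and 56.2 kb for the more numerous distal sites without Pol II.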
